A study of Saccharomyces cerevisiae with 30 samples.

Results

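The genes described here are the 36 nuclear-encoded genes for subunits of the mitochondrial respiratory chain and the ATP synthase that were picked by systematic name, out of 7126 genes in the count tables. They comprise the internal NADH dehydrogenase gene *NDI1*, 4 genes of complex II, 9 of complex III, both cytochrome *c* genes, 8 of complex IV and 12 of the ATP synthase. Cells were homozygous diploids of SK288C, an S288C strain with SK1 alleles that raise meiotic efficiency, and were collected after 5 h in SPO, the potassium acetate medium that induces sporulation. *ime4-cat*/*ime4-cat* cells, called *ime4-cat* below, make the m6A methyltransferase Ime4p without its catalytic activity, and WT cells are *IME4*/*IME4*. Both carry *rme1-S288C*, the replaced alleles of *TAO3* and *MKT1*, and auxotrophic alleles of *HIS3*, *LEU2*, *LYS2* and *URA3*. The polysome comparison rests on 3 *ime4-cat* and 3 WT libraries made from pooled polysome fractions of a sucrose gradient, that is from mRNA that carries several ribosomes. For another 12 RNA-seq libraries the title disagrees with the strain number or fraction letter of the file, so they entered no comparison between genotypes. Their titles also name *rme1-10*, an *RME1* allele in which the adenosine that carries m6A in the 3′ untranslated region is replaced by T, and 12 m6A-seq samples were not analysed here.

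Yeast cannot ferment acetate, and entry into meiosis on this medium depends on respiration. Electrons reach ubiquinone through Ndi1p, which takes the place of the complex I that budding yeast lacks, and through complex II, the succinate dehydrogenase. Complex III passes them to cytochrome *c* and complex IV to oxygen, and the ATP synthase uses the proton gradient that complexes III and IV build. Complexes III and IV and the ATP synthase join nuclear-encoded subunits with a few that are encoded in mitochondrial DNA, whereas complex II is wholly nuclear-encoded. Transcription of many nuclear genes of this group is raised on non-fermentable carbon by the Hap complex, which binds CCAAT boxes.

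All 36 genes were found by systematic name in the RefSeq annotation of R64, the assembly also known as sacCer3, and none overlapped another annotated gene. No stretch of 40 bases of any of them occurred elsewhere in the genome, so their reads were not shared with a near-identical copy. Their coding sequences were 180 to 1923 bases long, with a median of 454.5 bases against 1281 bases over tested genes with a known coding length. The 300 bases before each start codon were searched on both strands for the letters CCAAT, for ACCAATNA, a longer form of the Hap site that contains them, and for GGCGGC, the core of the URS1 element through which Ume6p represses and Ime1p activates early meiotic genes. The letters were chosen with the fold changes known, and a match describes the sequence, not a bound site. CCAAT was present upstream of 31 of the 36 genes (86.1%), against 41.8% of 6008 nuclear coding genes. ACCAATNA was present upstream of 13 of them (36.1%), against 5.21% of all.

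Of the 13 with ACCAATNA, 4 windows of 30 bases are printed to show the letters in different complexes, in capitals and on the strand of the gene.
*NDI1*: tattcattcggACCAATCAtatgaaggcat
*RIP1*: ctccataacggACCAATCAgcgttttgcgc
*COX13*: ttttttttcccACCAATGAgaggcggtact
*ATP15*: cttttatacgaACCAATGAaatttgatcct
On R64 these lie at chrXIII:30017-30046 (minus strand), chrV:107001-107030 (plus strand), chrVII:144584-144613 (plus strand) and chrXVI:29934-29963 (plus strand), in the order of the lines, and none falls inside another annotated gene. The motif ended 220, 240, 205 and 126 bases before the start codon in the same order. None of the 4 genes passed the test between *ime4-cat* and WT cells that is described further on.

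GGCGGC was present upstream of 5 of the 36 genes (13.9%), against 5.21% of all nuclear coding genes. These 5 windows are printed because they include both genes whose polysomal mRNA changed, and the window of the meiotic cohesin gene *REC8* is set beside them.
*QCR6*: aGGCGGCctgccggtacatccgtcacctac
*ATP20*: ctcgattgagtgGGCGGCttttttcttatt
*COX5A*: gccgatacaagcGGCGGCgaaaagttaaaa
*SDH1*: ttgccacgtcgaGGCGGCttgaagcttaaa
*SDH2*: cagcgcgcaaaaGGCGGCctcgcattggcc
*REC8*: gaacttgacttcGGCGGCaaaccaatatat
In the order of the lines, the windows lie at chrVI:225040-225069 (minus strand), chrXVI:599667-599696 (plus strand), chrXIV:531598-531627 (plus strand), chrXI:171297-171326 (minus strand), chrXII:54085-54114 (minus strand) and chrXVI:571545-571574 (minus strand). The *QCR6* match ended 293 bases before the start codon, within the coding sequence of the neighbouring gene *PHO4*, while the *ATP20* match ended 185 bases before the start codon and lay between genes. *COX5A*, *SDH1* and *SDH2* have the letters ending 109, 179 and 165 bases before the start codon and were not called. Of the 10 meiotic marker genes given below, 5 had GGCGGC upstream, at 178 bases in *REC8*.

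Depth was low, with 586141 to 1262397 counts on genes in the 6 polysome libraries, since 85.2% to 94.3% of the entries counted by the authors were alignments that were not unique. Counts are given as CPM, counts per 1000000 counts on genes after scaling by TMM factors, and differences as log2 fold changes of *ime4-cat* over WT fitted by quasi-likelihood in edgeR, with p-values adjusted by Benjamini-Hochberg over all 5493 genes tested. A gene was called at an adjusted p under 0.05, which 17.7% of tested genes reached, 8.28% as higher and 9.38% as lower in *ime4-cat* cells. *IME4* itself had 155, 95.1 and 131 CPM in *ime4-cat* cells, against 217, 177 and 159 CPM in WT cells (log2 fold change -0.51 ± 0.18 SE, adjusted p = 0.058), a level that does not check an allele with point mutations. *RME1*, the repressor of *IME1*, was higher in *ime4-cat* cells by 1.02 ± 0.16 (adjusted p = 0.00014). All 10 markers of meiotic entry and prophase fell in *ime4-cat* cells, with log2 fold changes of -0.86 for *IME1*, -1.64 for *IME2*, -2.10 for *REC8* and -2.25 for *SPO11*, and their summed level was 1605 to 1900 CPM in *ime4-cat* libraries and 4759 to 5351 CPM in WT libraries. Mating-type genes of haploid cells were low, with 83.4 to 116 CPM summed over 7 genes in *ime4-cat* libraries and 79.7 to 89.9 CPM in WT libraries. No haploid marker was called among the 3 that were tested with edgeR (1 at an unadjusted p under 0.05, and none called by DESeq2 or limma). Levels of meiotic genes thus differed between the genotypes beside every value below, and their part in those values was not tested. In bulk RNA, fewer cells of a kind and less RNA per cell cannot be told apart.

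In contrast to the meiotic genes, most respiratory chain and ATP synthase genes had close levels of polysomal mRNA in the 2 genotypes. Total RNA was not compared, so mRNA amount and ribosome loading cannot be told apart in these values. Of the 36 genes, all of which passed the filter on low counts, 2 were called lower in *ime4-cat* cells, *QCR6* of complex III and *ATP20* of the ATP synthase. None was called higher by the main edgeR fit, limma or DESeq2. At an unadjusted p under 0.05, 1 was higher, the cytochrome *c* gene *CYC1*. Calls in either direction made up 5.56% of the 36, beside 17.7% of all tested genes. Their median log2 fold change was 0.0026 beside -0.0056 over all tested genes, and the median size of their change regardless of sign was 0.14 beside 0.28. As many had a positive fold change (18) as a negative one (18). The 3 libraries of *ime4-cat* and the 3 of WT did not overlap for 5 of the 36 genes (13.9%), beside 32.5% of all tested genes. Together the 36 genes took 0.937%, 0.942% and 0.871% of the counts on genes in *ime4-cat* libraries, against 0.922%, 1.07% and 0.953% in WT libraries.

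**Figure D1:**
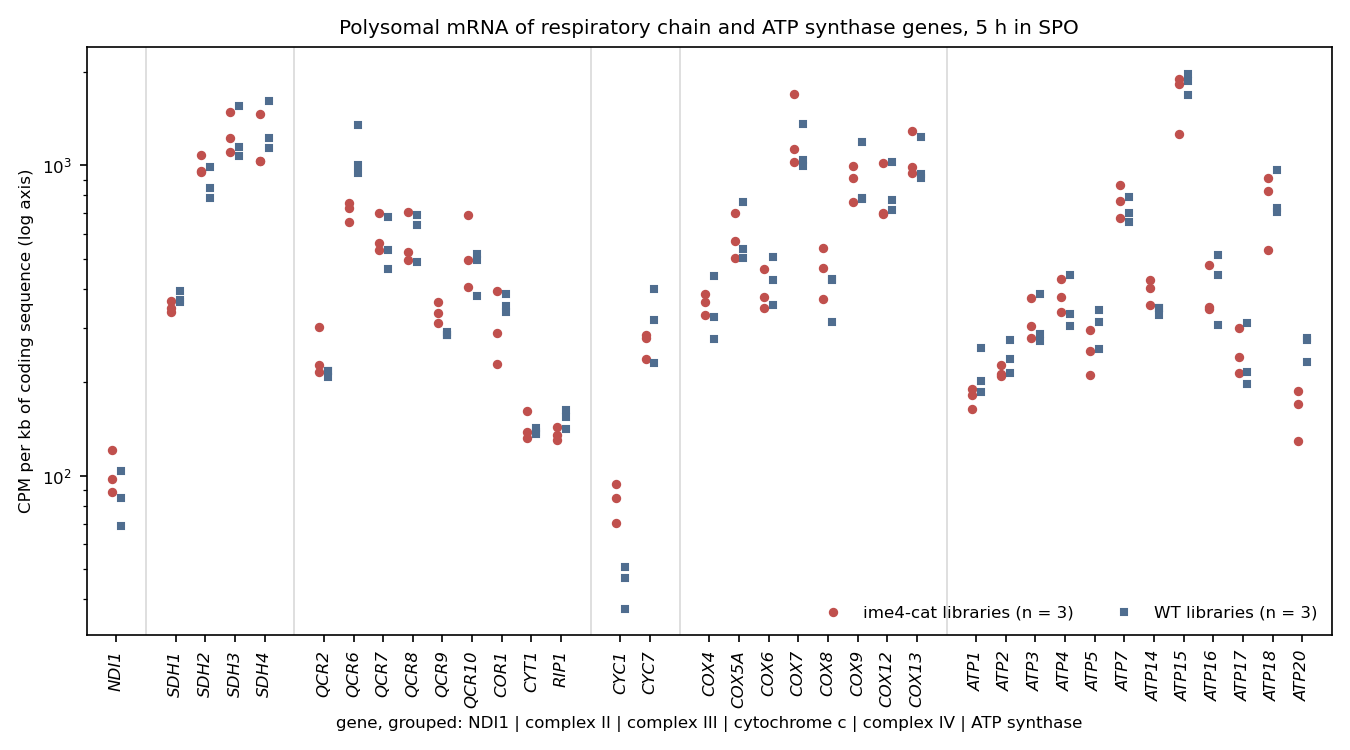
CPM per kb of coding sequence (log axis) of each gene in every polysome library, with *ime4-cat* libraries as circles on the left and WT libraries as squares on the right of each gene, grouped by complex. The points of the genotypes do not overlap for 5 genes, with *ime4-cat* below WT for *QCR6* and *ATP20* and above WT for *QCR9*, *CYC1* and *ATP14*.

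A gene that was not called need not be unchanged, so the 95% intervals of the fold changes are given. The interval lay inside a change of 2-fold in either direction for 34 of the 36 genes (94.4%), with *CYC1* and *ATP20* as the exceptions, beside 76.5% of all tested genes. It lay inside 1.5-fold for 28 of them (77.8%), beside 29.5% of all tested genes. Standard errors of the 36 genes were 0.14 to 0.30 on the log2 scale, and counts per library 8 to 917. Over all tested genes they were 0.13 to 0.53 and 1 to 23884. The shares inside these limits, and the median sizes of change given before, were not matched for level or standard error. At the standard errors of the 36 genes, a change of under about 1.5-fold in a single gene was often not detectable.

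**Figure D2:**
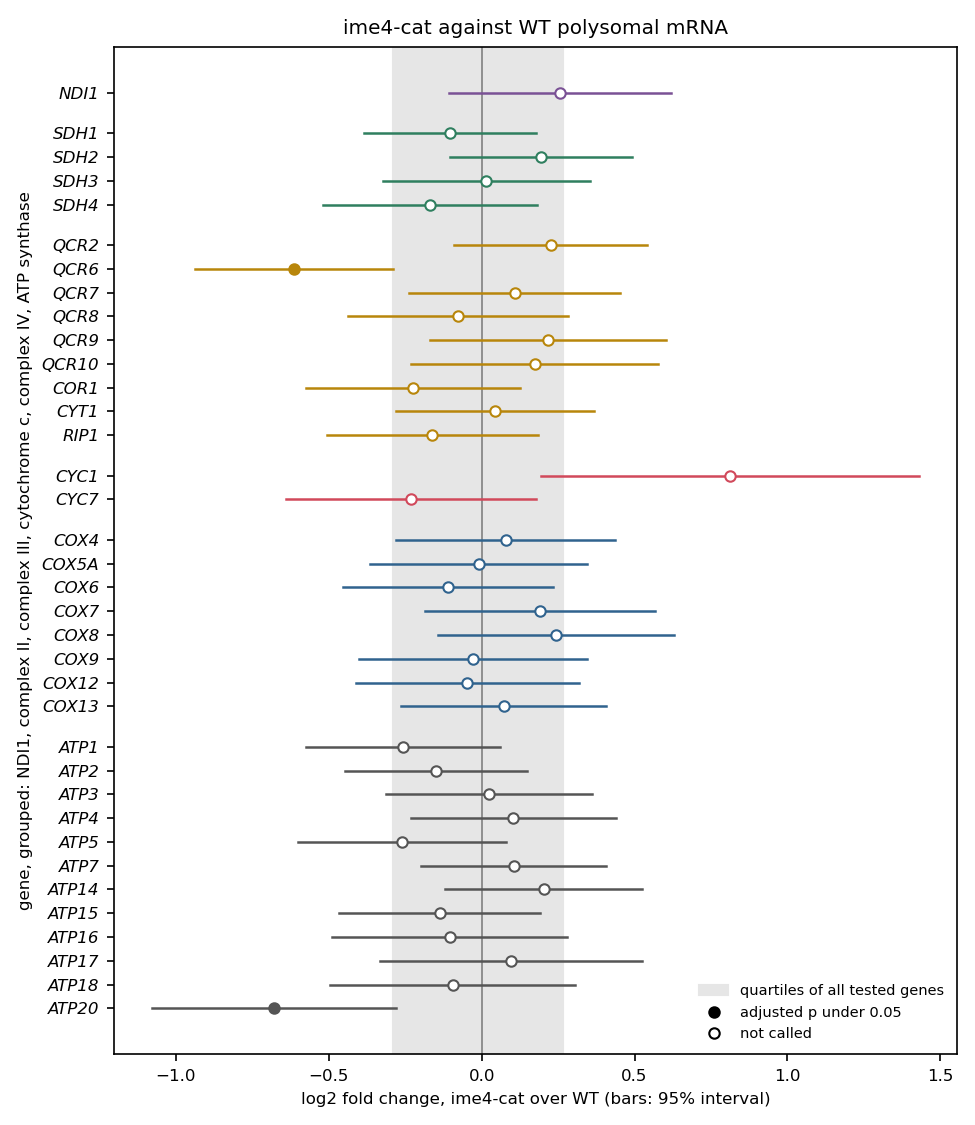
Log2 fold change of *ime4-cat* over WT polysomal mRNA for each gene, with its 95% interval as a bar, grouped by complex. Filled circles mark an adjusted p under 0.05, and the grey band runs between the lower and upper quartiles of all 5493 tested genes, -0.29 and 0.26. Only *QCR6* and *ATP20* are filled, and only *QCR6*, *ATP20* and *CYC1* have their circle outside the band.

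*NDI1* (YML120C), the internal NADH dehydrogenase at the entry of the chain, had 186, 136 and 150 CPM in *ime4-cat* cells, against 159, 106 and 130 CPM in WT cells. The groups overlapped, and the difference of 0.26 ± 0.17 did not pass the test (adjusted p = 0.36, interval -0.11 to 0.62). CPM per kb, here and below, divides by the length of the coding sequence alone. The part of reads from untranslated regions in the values of short genes was not tested. *NDI1* stood at 102 CPM per kb in *ime4-cat* and 85.5 CPM per kb in WT cells, lower than every other gene of the group except *CYC1* in each genotype's means. Succinate, the other entry, is oxidised by complex II, whose 4 genes stood much higher. *SDH3* (YKL141W), a membrane anchor, had the highest mean per length of the complex over both genotypes, with 658, 886 and 730 CPM in *ime4-cat* cells, against 642, 928 and 683 CPM in WT cells. Its fold change was 0.015 ± 0.16 (adjusted p = 0.97), the library numbered 2 being the highest of each genotype. *SDH3* and *SDH4*, both anchors, had 1270 and 1177 CPM per kb in *ime4-cat* cells, against 1258 and 1325 CPM per kb in WT cells. Per length *SDH3* thus lay above *SDH4* in *ime4-cat* cells and below it in WT cells, a difference between the genes that was not tested. The iron-sulphur subunit gene *SDH2* stood at 998 and 874 CPM per kb in *ime4-cat* and WT cells, and *SDH1*, which encodes the large flavoprotein, at 350 and 376. None of the 4 was called (0 at an unadjusted p under 0.05, and 0 by DESeq2 or limma), with fold changes of -0.17 to 0.19 and a median of -0.044, and all 4 intervals lay inside 1.5-fold.

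Complex III held the first gene that changed. *QCR6* (YFR033C, chromosome VI, 224326 to 224769), a small acidic subunit near the docking site of cytochrome *c*, had 293, 324 and 335 CPM in *ime4-cat* cells, against 445, 597 and 420 CPM in WT cells. All 3 *ime4-cat* libraries lay below all 3 WT libraries. The gene fell by 0.61 ± 0.16 on the log2 scale (interval -0.94 to -0.29, adjusted p = 0.0085), that is to 317 ± 22.0 CPM in *ime4-cat* cells, against 487 ± 96.0 CPM in WT cells (SD, n = 3 each). The WT library numbered 2 was the highest, and without it the fold change was -0.45 with an adjusted p of 0.052. Per length *QCR6* had the highest mean of the complex. Its neighbour on the side of its promoter, *PHO4*, stood at -0.056 ± 0.23 (adjusted p = 0.91).

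The other 8 genes of complex III were not called. The core subunit genes *COR1* and *QCR2* had fold changes of -0.23 and 0.23, and *CYT1* and *RIP1*, for cytochrome *c*1 and the Rieske iron-sulphur protein, 0.044 and -0.16. *COR1* had 541, 315 and 395 CPM in *ime4-cat* cells, against 528, 485 and 463 CPM in WT cells, so that the library numbered 1 of *ime4-cat* lay above the range of WT and the others below it. Without that library *COR1* was called lower, at -0.47 (adjusted p = 0.045). The small subunit genes *QCR7*, *QCR8*, *QCR9* and *QCR10* had fold changes of -0.079 to 0.22. *QCR9* had 62.3, 72.7 and 67.3 CPM in *ime4-cat* cells, against 57.1, 58.4 and 57.2 CPM in WT cells. Its groups did not overlap, but the difference of 0.22 ± 0.19 did not pass the test (adjusted p = 0.47).

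Neither of the cytochrome *c* genes was called by the main edgeR fit, although alternative edgeR fits given further on called *CYC1* higher. *CYC1* (YJR048W), the major isoform in aerobic cells, had 23.2, 28.0 and 31.1 CPM in *ime4-cat* cells, against 15.4, 12.3 and 16.8 CPM in WT cells. Every *ime4-cat* library lay above every WT library, with a mean of 27.4 ± 3.94 CPM in *ime4-cat* and 14.8 ± 2.30 CPM in WT cells (SD, n = 3 each). It had 15 to 22 counts in *ime4-cat* libraries and 8 to 22 in WT libraries, and its log2 fold change was 0.81 ± 0.30 (interval 0.19 to 1.43), which did not pass the test (adjusted p = 0.064). *CYC7* (YEL039C), the isoform used more at low oxygen, had 81.3, 96.9 and 94.9 CPM in *ime4-cat* cells, against 78.8, 137 and 108 CPM in WT cells, which overlap (-0.23 ± 0.20, adjusted p = 0.47). Per length *CYC7* stood above *CYC1* in both genotypes, at 266 against 83.1 CPM per kb in *ime4-cat* cells and 316 against 44.9 CPM per kb in WT cells. *CYC1* was the lowest of the 36 genes in each genotype.

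None of the 8 genes of complex IV was called (0 at an unadjusted p under 0.05, and 0 by DESeq2 or limma), and their median fold change was 0.031. The range was -0.11 for *COX6* to 0.24 for *COX8*, with *COX4*, *COX5A*, *COX9* and *COX12* between -0.047 and 0.078. *COX7* (YMR256C) had the highest mean per length of the complex, with 207, 311 and 188 CPM in *ime4-cat* cells, against 182, 249 and 190 CPM in WT cells, and overlapped (0.19 ± 0.18, adjusted p = 0.53). *COX13* (YGL191W) is the protein-coding gene that follows *IME4* on chromosome VII, on the same strand and 759 bases from the end of *IME4*. It had 387, 505 and 368 CPM in *ime4-cat* cells, against 354, 482 and 365 CPM in WT cells. The groups overlapped, with a fold change of 0.072 ± 0.16 and an interval of -0.26 to 0.41 (adjusted p = 0.81).

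The ATP synthase held the second gene that changed. *ATP20* (YPR020W, chromosome XVI, 599870 to 600217), for a membrane subunit that takes part in pairing of ATP synthase complexes, had 59.1, 65.2 and 44.9 CPM in *ime4-cat* cells, against 80.6, 95.2 and 96.8 CPM in WT cells. All 3 *ime4-cat* libraries lay below all 3 WT libraries. It fell by 0.68 ± 0.19 on the log2 scale (interval -1.08 to -0.28, adjusted p = 0.018), to 56.4 ± 10.5 CPM in *ime4-cat* cells, against 90.9 ± 8.92 CPM in WT cells (SD, n = 3 each). The call was lost when WT replicate 3 (-0.62, adjusted p = 0.098) or *ime4-cat* replicate 3 (-0.54, adjusted p = 0.11) was left out, and with DESeq2 (-0.66, adjusted p = 0.066). Its neighbours *MCM4* and *AGC1* stood at -0.23 and 0.15 and were not called.

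None of the other 11 genes of the ATP synthase was called. The genes of the catalytic head, *ATP1* and *ATP2*, had fold changes of -0.26 and -0.15. Those of the central stalk, *ATP3*, *ATP15* and *ATP16*, had 0.024, -0.14 and -0.10. *ATP15* (YPL271W), for the small epsilon subunit, had the highest mean per length of all 36 genes, with 358, 347 and 238 CPM in *ime4-cat* cells, against 318, 373 and 353 CPM in WT cells, which overlap (-0.14 ± 0.16, adjusted p = 0.61). Those of the peripheral stalk, *ATP4*, *ATP5*, *ATP7* and *ATP14*, stood at 0.10, -0.26, 0.10 and 0.20. *ATP14* had 133, 151 and 161 CPM in *ime4-cat* cells, against 130, 131 and 123 CPM in WT cells, groups that do not overlap but did not pass the test (0.20 ± 0.15, adjusted p = 0.41). The small membrane subunit genes *ATP17* and *ATP18* stood at 0.096 and -0.095. *ATP20* was thus lower in *ime4-cat* cells while *ATP17* and *ATP18* overlapped, although the difference between these genes was not tested.

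**Figure D3:**
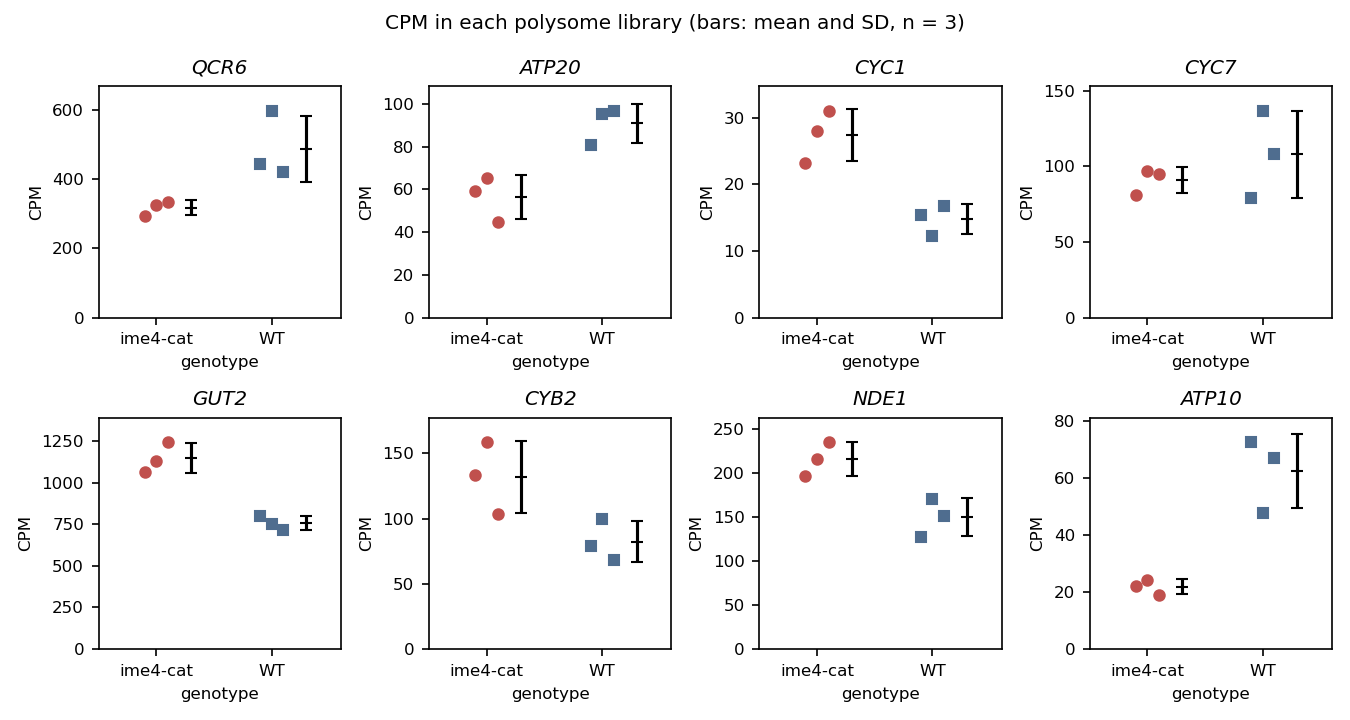
CPM in each polysome library for 4 members (*QCR6*, *ATP20*, *CYC1*, *CYC7*) and 4 other genes of respiration (*GUT2*, *CYB2*, *NDE1*, *ATP10*), with *ime4-cat* at the left and WT at the right of each panel and the mean with its SD as a bar. Only *CYC7* overlaps between the genotypes, and *ATP10* differs most, with 19.0 to 24.2 CPM in *ime4-cat* cells against 47.6 to 72.5 CPM in WT cells.

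Genes around the chain were read from further lists. The other dehydrogenases that pass electrons to it were higher in *ime4-cat* cells in 3 of 5 cases, where 8.28% of all tested genes were. *GUT2*, the mitochondrial glycerol phosphate dehydrogenase, had 1063, 1133 and 1243 CPM in *ime4-cat* cells, against 799, 752 and 717 CPM in WT cells (0.60 ± 0.14, adjusted p = 0.0049). *CYB2*, the lactate dehydrogenase of the intermembrane space, had 133, 158 and 104 CPM in *ime4-cat* cells, against 78.8, 99.8 and 68.6 CPM in WT cells (0.71 ± 0.19, adjusted p = 0.012). *NDE1*, an external NADH dehydrogenase named after its value was seen, had 196, 216 and 235 CPM in *ime4-cat* cells, against 128, 170 and 151 CPM in WT cells (0.53 ± 0.15, adjusted p = 0.021). In all of them every *ime4-cat* library lay above every WT library, unlike *NDI1*, whose groups overlap, although the difference between *NDE1* and *NDI1* was not tested. *CYB2* lost its call without WT replicate 3 (0.58, adjusted p = 0.12). *NDE1* lost it without WT replicate 1, without WT replicate 3 or without *ime4-cat* replicate 3 (0.43 to 0.54, adjusted p = 0.090 to 0.11).

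Of 10 transcription factors and regulators of respiratory genes, 2 were called, both higher (20%, beside 17.7% of all tested genes called in either direction). *MIG1*, a repressor active in glucose, had 158, 101 and 150 CPM in *ime4-cat* cells, against 73.4, 63.0 and 82.3 CPM in WT cells (0.90 ± 0.19, adjusted p = 0.0018). *HAP1*, a gene for a haem-responsive transcription factor, had 583, 574 and 668 CPM in *ime4-cat* cells, against 457, 467 and 421 CPM in WT cells (0.44 ± 0.14, adjusted p = 0.032). Whether the *HAP1* allele of this strain makes an active protein was not tested. The call of *HAP1* was lost without TMM factors and without WT replicate 1, WT replicate 3 or *ime4-cat* replicate 3, with adjusted p-values of 0.060 to 0.17. *HAP4*, the limiting subunit of the CCAAT-binding Hap complex, had 123, 127 and 140 CPM in *ime4-cat* cells, against 121, 131 and 133 CPM in WT cells (0.0092 ± 0.15, adjusted p = 0.98). *CAT8*, an activator of genes for growth without fermentable carbon, also overlapped (-0.065 ± 0.15, adjusted p = 0.81).

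Among 46 tested genes for assembly of the complexes or expression of mitochondrial subunits, 2 were called, both lower in *ime4-cat* cells (4.35%, where 9.38% of all tested genes were lower). *ATP10*, an assembly factor of the ATP synthase, had 22.2, 24.2 and 19.0 CPM in *ime4-cat* cells, against 72.5, 47.6 and 67.1 CPM in WT cells (-1.55 ± 0.25, adjusted p = 0.00016). It ends 31 bases before the meiotic recombination gene *CST9*, on the same strand, which was lower in *ime4-cat* cells by a log2 fold change of -1.20 ± 0.18 (adjusted p = 0.00011), and the part of *CST9* in the *ATP10* counts was not tested. *OXA1*, the insertase of the inner membrane, had 54.9, 42.9 and 51.8 CPM in *ime4-cat* cells, against 72.5, 67.6 and 88.4 CPM in WT cells (-0.61 ± 0.20, adjusted p = 0.037). Its call was lost without WT replicate 3, *ime4-cat* replicate 2 or *ime4-cat* replicate 3 (-0.61 to -0.48, adjusted p = 0.10 to 0.21), without both libraries numbered 2 (adjusted p = 0.087) and with DESeq2 (adjusted p = 0.14). None of the 10 other subunits and isoforms was called (0 at an unadjusted p under 0.05, and 0 by DESeq2 or limma), with a median of 0.13. None of the 4 tested genes for carriers and the porin was called (2 at an unadjusted p under 0.05, and 0 called by DESeq2 or limma), with a median of -0.23. *PET9*, the main ADP/ATP carrier, had 196, 209 and 199 CPM in *ime4-cat* cells, against 223, 272 and 271 CPM in WT cells (-0.34 ± 0.15, adjusted p = 0.11). The 7 subunits encoded in mitochondrial DNA could not be compared, since all 55 mitochondrially encoded features were at 0 counts in all 18 libraries.

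Libraries differed within a genotype by a pattern that bears on short genes. The library numbered 2 was the highest of its genotype for 21 of the 36 genes in *ime4-cat* and 30 in WT, and in both for 19 (52.8%). Over all tested genes it was the highest in both for 19.3%. For the 24 genes with a coding sequence under 600 bases its level lay above the mean of the other libraries by a median of 0.36 in *ime4-cat* and 0.42 in WT on the log2 scale, and for the 12 longer ones by -0.018 and 0.19. Over all tested genes under 600 bases these medians were 0.27 and 0.24. The median fold change of the 36 genes was 0.059 when both of these libraries were left out, 0.16 without WT replicate 2 alone and -0.084 without *ime4-cat* replicate 2 alone. When a trend in coding length was removed from each library it was 0.11, beside 0.027 for all tested genes. *QCR6* was at -0.46 (adjusted p = 0.059) without both libraries and at -0.49 (adjusted p = 0.011) without the trend. *ATP20* kept its call in both (-0.74 and -0.59, adjusted p = 0.033 and 0.024), and *CYC1* was called higher without the trend (0.89, adjusted p = 0.039) but not without the libraries (0.71, adjusted p = 0.22). Both ways of handling the pattern were chosen after seeing the data.

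**Figure D4:**
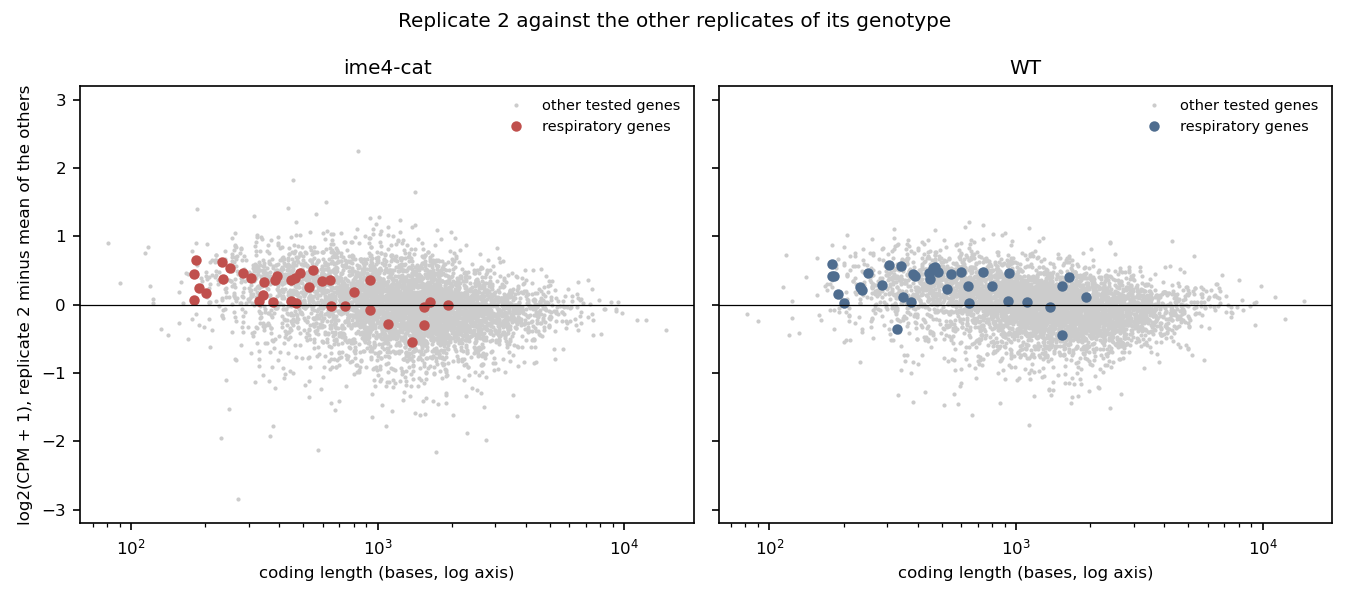
Difference on the log2(CPM + 1) scale between the library numbered 2 and the mean of the other libraries of its genotype, against coding length in bases (log axis), for *ime4-cat* (left) and WT (right). Coloured points are the 36 respiratory genes and grey points the other tested genes, and the coloured points under 600 bases lie mostly above 0, with medians of 0.36 in *ime4-cat* and 0.42 in WT.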

How the data were processed

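The authors deposited counts, whole numbers of reads on each gene that were not normalized, as 1 table for each library. Per the labels reads were aligned with TopHat2 to sacCer3. The counting program and its strand setting are not given in the sources used here. Closing entries for reads on no gene, 93.5% to 97.5% of all entries in the 6 polysome libraries, stayed out of library sizes and tests. Systematic names were matched to RefSeq on R64 (6048 of 7126 genes). Counts were scaled by TMM, filtered with filterByExpr and tested with edgeR 4.0.16 (glmQLFit and glmQLFTest, with no term other than genotype) under R 4.3.3, with Benjamini-Hochberg adjustment over 5493 genes. Replicates are separate biological replicates per the study's methods, and no pair agreed within sampling noise. DESeq2 1.42.0, limma 3.58.1, other scalings, filters, left-out replicates, a replicate block and a stricter threshold were alternatives. Python 3.11.15 and matplotlib 3.10.9 drew figures and searched sequence.

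The 36 genes and all other lists were chosen with earlier results of these data known. All members are named. Full values are given for called members, the member with the highest mean CPM per kb in each complex, *CYC1*, *CYC7*, *NDI1* and *COX13*. The 2 called genes with the largest change are named from each other list, with *HAP4*, *CAT8* and *PET9*. *NDE1*, *CST9*, the groups without overlap and the other neighbours were added after their values were seen.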

Additional observations from a re-analysis of the deposited data

Results flagged for a closer look

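The 12 libraries with disagreeing labels fall into 4 sets of 3, which title and file name both keep together, and were set beside the WT polysome libraries on CPM scaled over all 18 libraries. In the set titled rme1-10 polysome (file strain WT, letter t) 6 of the 36 genes had all 3 libraries above all 3 WT polysome libraries, namely *QCR9*, *CYT1*, *RIP1*, *ATP1*, *ATP2* and *ATP17*. The same count was 6 in the set titled ime4-cat input (file strain rme1-10, t), 7 in the set titled WT input (file strain ime4-cat, t) and 0 in the set titled rme1-10 input (file strain rme1-10, p). Over all tested genes the shares were 18.0%, 19.1%, 16.8% and 4.48% in this order of the sets. The shares for the 36 genes were 16.7%, 16.7%, 19.4% and 0%. Within the set titled WT input, library 3 stood apart, with 545 CPM of *IME2*, which encodes a kinase of early meiosis, against 202 and 203 CPM in libraries 1 and 2. The meiotic markers took 0.411% of its counts on genes, against 0.178% and 0.161%. Set against libraries 1 and 2, its counts over genes gave chi-square values per degree of freedom of 22.5 and 15.95, where that between libraries 1 and 2 was 8.59. Without library 3, 7 of the 36 genes lay above all WT polysome libraries in this set, beside 25.1% of all tested genes. No group held 4 or more samples, so single samples were not tested as outliers, and the values of library 3 are a description. On the same scale *IME2* stood at 509 to 611 CPM in WT polysome libraries and at 156 to 209 CPM in *ime4-cat* polysome libraries. *RME1* had 182, 209 and 238 CPM in libraries 1, 2 and 3 of the set titled WT input. It stood at 74.5 to 90.4 CPM in WT polysome libraries and at 161 to 176 CPM in *ime4-cat* polysome libraries. Which label of the set titled WT input is right was not tested.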

How the results depend on the processing

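No named gene reversed a call. Of 847 values of named genes under the alternatives, 818 kept their direction and side of the threshold or were never called. Genes called lower among the 36 numbered 1 with DESeq2, at an adjusted p under 0.01, and without both libraries numbered 2, and 1 to 3 with each replicate left out in turn. Genes called higher among them numbered 1 (*CYC1*) with the replicate block (0.84, adjusted p = 0.042) and without the coding length trend, and 0 with each replicate left out. Over all genes, 214 higher and 298 lower were called at an adjusted p under 0.01, 805 and 800 with the replicate block, and 334 and 340 with DESeq2, against 455 and 515. Leaving out a replicate gave 203 to 478 higher and 307 to 488 lower, the fewest higher without WT replicate 3 and the fewest lower without *ime4-cat* replicate 3 (270 higher without it). With no scaling factors 346 were higher and 593 lower. The median of the 36 genes was -0.098 to 0.16 with a replicate left out, highest without WT replicate 2. That of complex III was -0.050 to 0.058 with a replicate left out, -0.013 with no scaling factors and 0.13 without the length trend. The cause was not tested. Same-numbered libraries of the genotypes had correlations of 0.52, 0.51 and 0.088 of their deviations over 3146 genes. Between libraries numbered 1 and 2 the correlations were -0.53 and -0.45, and each library correlated best with its own number. The main fit did not take the numbers as pairs. Deviations from the mean of a genotype depend on each other, so the value of 0.088 cannot decide whether the libraries are paired. *PET9* was called lower with the block (-0.33, adjusted p = 0.020), and *IME4* in 7 of 16 alternatives. *CYC1* rested on 8 to 22 counts per library.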

Other observations

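Levels in the 12 libraries with disagreeing labels are given as values, on CPM scaled over all 18 libraries, with no test between them. Over all 18 libraries, values of some of the 36 genes fell into separate clusters by the letter in the file name. *ATP2*, for the beta subunit of the catalytic head, had 630, 648 and 648 CPM in the set titled rme1-10 polysome (file strain WT, letter t), 543, 576 and 593 CPM in the set titled WT input (file strain ime4-cat, t), and 646, 601 and 586 CPM in the set titled ime4-cat input (file strain rme1-10, t). It had 404, 355 and 370 CPM in the set titled rme1-10 input (file strain rme1-10, p), 360, 335 and 324 CPM in *ime4-cat* polysome libraries and 371, 429 and 333 CPM in WT polysome libraries. The 9 libraries with the letter t thus stood at 543 to 648 CPM and the 9 with the letter p at 324 to 429 CPM. *ATP1*, for the alpha subunit, was at 433 to 617 CPM with t and 277 to 429 CPM with p. *ATP17* was at 97.7 to 153 CPM with t and 61.0 to 97.1 CPM with p, and *QCR9* at 77.6 to 129 CPM with t and 51.3 to 74.6 CPM with p. *SDH4* stood the other way, at 396 to 540 CPM with t and 548 to 899 CPM with p. These 5 of the 36 genes (13.9%) separated fully by the letter, as did 3.33% of all tested genes. Without library 3 of the set titled WT input, which stood apart from libraries 1 and 2 of that set, 7 genes separated, beside 4.57% of all tested genes. The titles, which place one set of each letter under the other fraction, do not separate them.

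*QCR6* and *ATP20*, the genes called in the polysome libraries, did not separate in this way, nor did *CYC1*, which the main fit did not call. *QCR6* had 314, 341 and 319 CPM in the set titled rme1-10 polysome (file strain WT, letter t). It had 305, 280 and 170 CPM in the set titled WT input (file strain ime4-cat, t), the lowest being library 3, which stood apart. The set titled rme1-10 input (file strain rme1-10, p) had 355, 493 and 460 CPM. The set titled ime4-cat input (file strain rme1-10, t) had 254, 350 and 369 CPM. *ATP20* had 85.2, 64.7 and 58.8 CPM, 74.1, 47.1 and 81.3 CPM, 76.5, 89.7 and 104 CPM, and 92.9, 55.9 and 73.0 CPM in the same order of the sets. *CYC1* had 8.81, 15.2 and 7.28 CPM, 23.0, 16.1 and 6.82 CPM, 17.1, 22.4 and 15.1 CPM, and 18.6, 12.9 and 12.6 CPM in that order. The 36 genes together took 0.871% to 1.07% of the counts on genes in all 18 libraries.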
